A study of Mus musculus with 3 samples.

Results

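The comparison described here set the library of homozygous *tw18*/*tw18* embryos against that of heterozygous *tw18*/+ embryos, gene by gene. A gene was included when its FPKM (fragments on a gene, scaled to the length of its transcript and to the fragments of the library) was at least 1 in either library, which 12846 of the 23421 genes of the table did. The embryos are labelled as strain 129/SvEv, although the study allows that their genetic backgrounds were not uniform. They were collected at embryonic day 6.5, when the primitive streak starts to form. Among embryos of that day stained for *Nodal* and *Wnt3*, the study describes the mutants as slightly younger. Whether the libraries differed in developmental stage was not tested. A wild-type library of the same embryonic day and strain label is given beside both as a further point of reference. The tissue is labelled epiblast, while the study describes it as the embryo proper, which is epiblast with the visceral endoderm around it. The extra-embryonic part was cut off and used for genotyping. The *tw18* haplotype is a deletion on chromosome 17 that removes *Ppp2r1a* together with a cluster of zinc finger genes, and *tw18*/+ embryos carry 1 copy of it, so the reference in this comparison is itself deficient for these genes on 1 chromosome. How many embryos entered a library is not given in the sources used here. With 1 library per genotype there is no spread between replicates, no test and no p-value, and every difference below is a difference between those libraries. In RNA from whole tissue, fewer cells of a type and less RNA per cell cannot be told apart.

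*Ppp2r1a* encodes the main scaffold subunit of protein phosphatase 2A (PP2A), a serine and threonine phosphatase in which a scaffold holds a catalytic and a regulatory subunit together. The regulatory subunits decide which proteins are dephosphorylated, and components of the WNT, TGFβ and cell cycle machinery are among the substrates. At gastrulation, Nodal and WNT3 in the proximal posterior epiblast and BMP4 from the extra-embryonic ectoderm induce the primitive streak, where epiblast cells turn into mesoderm and definitive endoderm. The anterior visceral endoderm secretes antagonists of Nodal and WNT and restricts the streak to the posterior side.

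The depth of the 2 libraries compared was close to equal. The steps between low FPKM values gave 0.0519 FPKM per fragment for a transcript of 1 kb in *tw18*/+ and 0.0523 in *tw18*/*tw18*, against 0.0723 in wild type, and 85.4% to 86.8% of the low values corresponded to a whole number of fragments, give or take 0.2. At an FPKM of 1 a transcript of that length therefore rests on a small number of fragments, and fold changes near the filter are imprecise. Where a pair of FPKM values is joined by the word against, *tw18*/*tw18* comes before *tw18*/+. A gene counts below as higher or lower when the log2 ratio of *tw18*/*tw18* over *tw18*/+, without a pseudocount, was at least 1 in size and the larger value was at least 1. Differences of log2(FPKM + 1) are used for medians of gene lists and where a value is listed at 0, which makes the change of low genes look smaller than it is. At the edge of the filter, *Arhgap20* was left out with an FPKM of 0.350 in *tw18*/+ and 0.99977 in *tw18*/*tw18*, and *Cfi* was kept with 1.0007 and 0.352.

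*Ppp2r1a* (chr17:20945311-20965916, GRCm38) was measured at an FPKM of 12.8 in *tw18*/*tw18*, 81.7 in *tw18*/+ and 146 in wild type. The 3 libraries were thus ordered by the number of intact copies, and *tw18*/*tw18* had 15.6% of the *tw18*/+ level, a log2 ratio of -2.68 with an interval of -2.91 to -2.45 (95%, counting error only). A level above 0 remained in the library labelled *tw18*/*tw18*, although the deletion covers the whole gene. Most other genes of the deleted interval were lower as well. Of 62 genes of the table located there, 24 reached an FPKM of 1 in *tw18*/+, and 22 of these lay proximal to *Zfp213*, which is close to the distal breakpoint. Among the 22, 19 were lower in *tw18*/*tw18*, and the level there was 15.9% of that in *tw18*/+ in the median, ranging from 4.07% to 73.7%. KRAB zinc finger proteins, mostly repressors of transposable elements, make up most of the cluster, and 16 of its 17 measured Zfp genes were lower, at a median of 12.8%. *Zfp229* was the lowest of them relative to *tw18*/+, with FPKM values of 0.0807 in *tw18*/*tw18*, 1.98 in *tw18*/+ and 4.0 in wild type. *Zfp942* had 0.51 in *tw18*/*tw18*, 6.24 in *tw18*/+ and 11.3 in wild type, and *Zfp946* had 1.25 in *tw18*/*tw18*, 7.77 in *tw18*/+ and 14.8 in wild type.

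The genes of the interval that were not lower were *Zfp53*, *Gm4944* and the pseudogene *Vmn2r-ps129*. *Zfp53* reached an FPKM of 2.35 in wild type, 1.72 in *tw18*/+ and 0.898 in *tw18*/*tw18*, *Gm4944* of 10.7 in wild type, 7.52 in *tw18*/+ and 5.55 in *tw18*/*tw18* and *Vmn2r-ps129* of 1.54 in wild type, 1.9 in *tw18*/+ and 1.27 in *tw18*/*tw18*. Zinc finger genes of this cluster have close paralogs, and how fragments shared between copies were assigned is not given in the sources used here, so these values are uncertain. Toward the distal end, *Zfp40* was the last gene with a low value, at 1.95 in wild type, 1.97 in *tw18*/+ and 0.141 in *tw18*/*tw18*, while *Zfp213* beyond it was higher in *tw18*/*tw18*, with 1.57 in wild type, 1.11 in *tw18*/+ and 3.63 in *tw18*/*tw18*. *Zfp13*, the last gene of the interval, was at 10.9 in wild type, 8.58 in *tw18*/+ and 7.46 in *tw18*/*tw18*. Summed over the 22 genes, the FPKM in *tw18*/*tw18* was 19.95% of that in *tw18*/+, and 25.9% without *Ppp2r1a*. Outside the interval, 41 of 625 genes of chromosome 17 were lower (6.56%) and 80 were higher (12.8%).

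**Figure D1:**
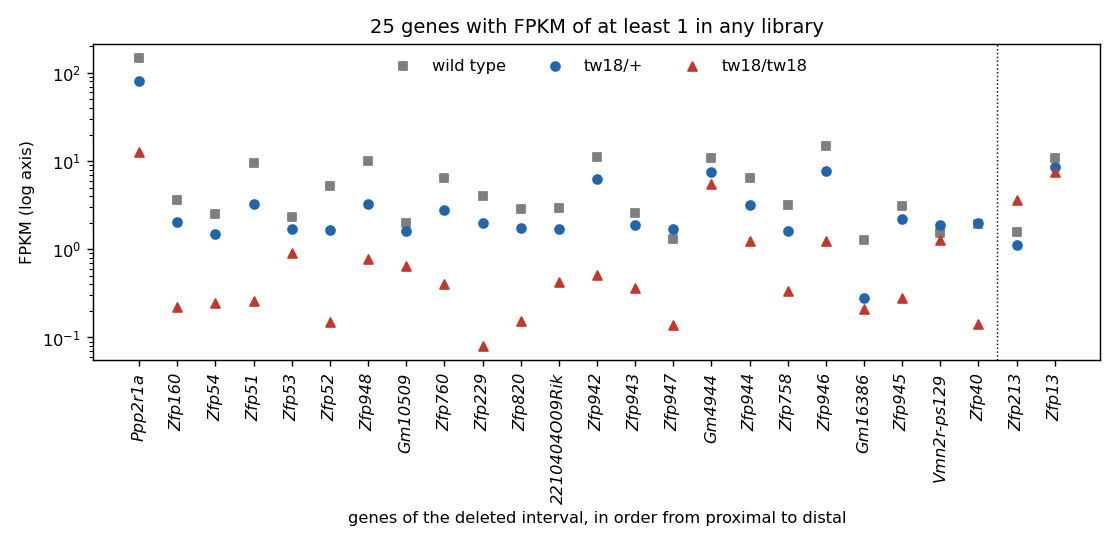
FPKM (log axis) of the 25 genes of the deleted interval that reached an FPKM of 1 in any library, ordered from proximal to distal, with 1 point per library and the dotted line placed before *Zfp213*. Most triangles (*tw18*/*tw18*) lie far below the circles (*tw18*/+), *Ppp2r1a* at 12.8 against 81.7, while *Gm4944*, *Vmn2r-ps129* and the genes right of the line stay close to or above them.

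Across all 12846 genes, 1910 were higher in *tw18*/*tw18* than in *tw18*/+ (14.9%) and 726 were lower (5.65%), so 72.5% of the genes past the threshold were higher. The other 10210 (79.5%) stayed within it. Of the 1910 higher genes, 811 reached an FPKM of 1 only in *tw18*/*tw18*, and of the 726 lower genes 330 reached it only in *tw18*/+. A gene that enters through 1 library must favour that library, so the 11435 genes at or above 1 in both are given separately: 1099 were higher (9.61%) and 396 lower (3.46%). At a log2 ratio of at least 2 in size, 610 genes were higher and 195 lower. Between *tw18*/+ and wild type, 4.7% of 12426 genes were higher in *tw18*/+ and 5.02% lower. The interquartile range of the difference of log2(FPKM + 1) was 0.81 for *tw18*/*tw18* minus *tw18*/+ and 0.40 for *tw18*/+ minus wild type.

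**Figure D2:**
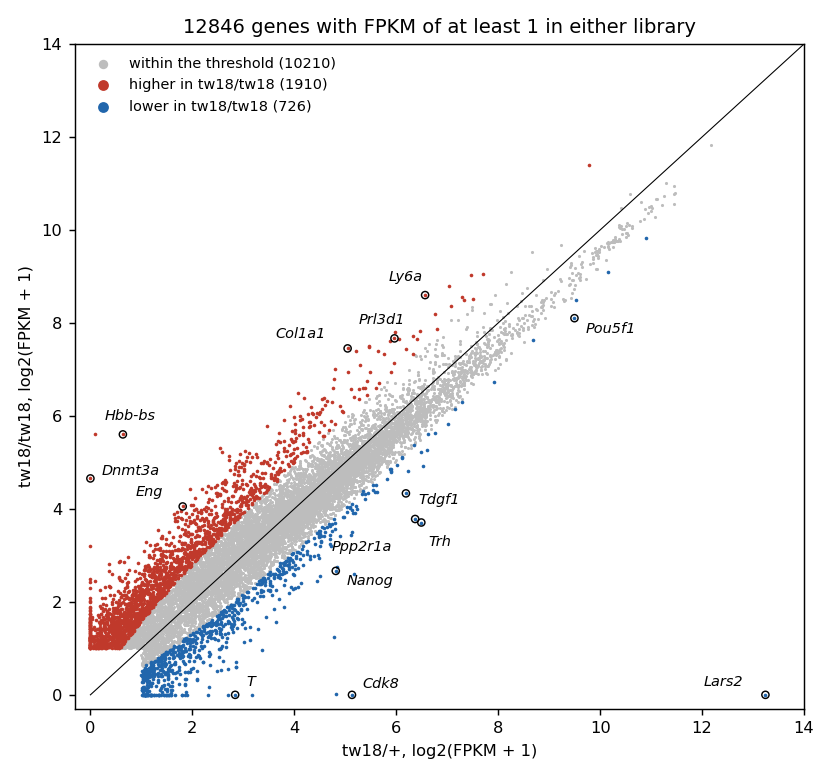
log2(FPKM + 1) of the 12846 genes in *tw18*/+ (x axis) and *tw18*/*tw18* (y axis), 1 point per gene, with the 1910 higher genes in red, the 726 lower in blue and circles around named genes. Red points lie mostly at low and middle levels, the upper end of the cloud lies just below the diagonal, and *T*, *Cdk8* and *Lars2* sit on the x axis at 0 in *tw18*/*tw18*.

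The direction of the differences depended on the level of the gene. Where the mean FPKM over both libraries was 1 to 2, 33.5% of genes were higher and 12.2% lower, with a median of 0.26 for the log2(FPKM + 1) difference. At a mean of 10 to 20 the shares were 7.11% and 2.81% with a median of -0.032, and above 100 they were 4.17% and 1.39% with a median of -0.39. Highly expressed genes therefore lay somewhat lower in *tw18*/*tw18* as a body, while low genes lay higher. The deposited values of a library need not have the same sum: the FPKM column summed to 455080 in *tw18*/+ and to 383410 in *tw18*/*tw18*, and rescaling to equal sums would add 0.25 to every log2 ratio. With that scaling 85.2% of the genes past the threshold were higher instead of 72.5%. By autosome, the share of higher genes lay between 12.2% and 19.2%.

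**Figure D3:**
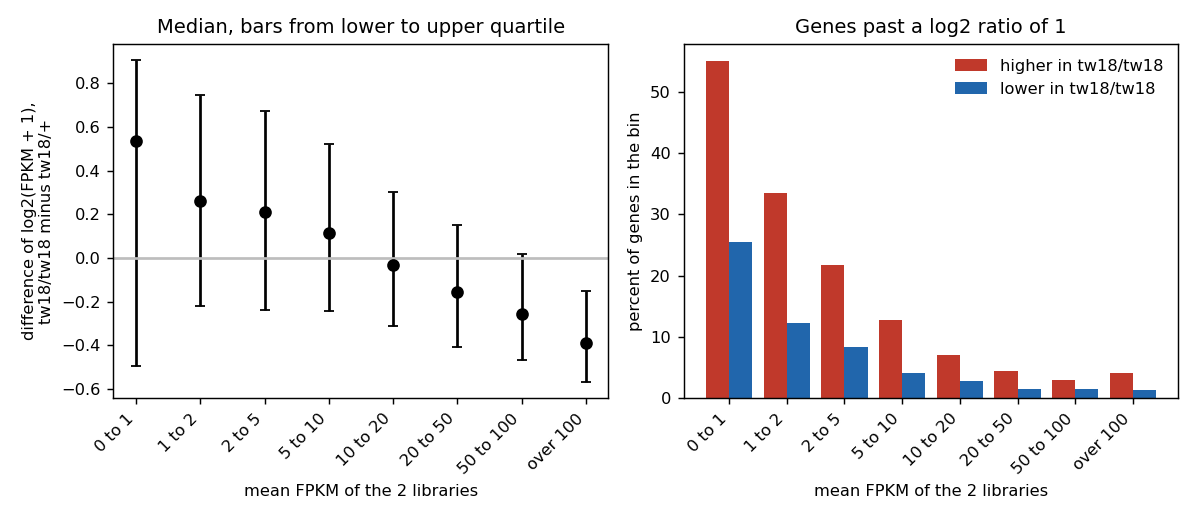
Left, median difference of log2(FPKM + 1), *tw18*/*tw18* minus *tw18*/+, by bins of the mean FPKM of both libraries, with bars from the lower to the upper quartile. Right, percent of genes in each bin that were higher or lower; the median falls from 0.53 in the lowest bin to -0.39 in the highest.

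The remaining PP2A genes showed small differences. Of 26 measured subunits and regulators of the phosphatase, 1 was lower (*Ppp2r1a*) and 1 higher, and the median difference was -0.25. With equal FPKM sums the median was -0.021 and 3 genes were higher. *Ppp2r1b*, the second scaffold gene, reached an FPKM of 30.4 in wild type, 30.3 in *tw18*/+ and 24.4 in *tw18*/*tw18*. The catalytic subunits *Ppp2ca* and *Ppp2cb* were at 127 against 162 and 36.9 against 48 (*tw18*/*tw18* against *tw18*/+). The gene that was higher was *Ppp2r3a*, which encodes a B'' regulatory subunit, with 2.71 in wild type, 2.33 in *tw18*/+ and 5.41 in *tw18*/*tw18*. *Set*, an inhibitor of the phosphatase, had 432 in wild type, 421 in *tw18*/+ and 249 in *tw18*/*tw18*, and *Lcmt1*, which methylates the catalytic subunit, had 28.3 in wild type, 23.2 in *tw18*/+ and 13.5 in *tw18*/*tw18*.

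Genes of the primitive streak and nascent mesoderm were lower more often than the background, but not throughout. Of 35 listed genes, 23 were measured, of which 8 were lower in *tw18*/*tw18* (*T*, *Etv2*, *Fgf17*, *Fgf8*, *Gsc*, *Lefty2*, *Mixl1* and *Sp5*), 5 were higher (*Aplnr*, *Cer1*, *Dll3*, *Kdr* and *Pdgfra*) and 10 were neither. The lower share was 34.8% and the higher share 21.7%, against 5.65% and 14.9% over all genes. Among the 17 that reached an FPKM of 1 in both libraries, 4 were lower and 3 higher. Over all such genes 3.46% were lower and 9.61% higher. *T* (chr17:8434423-8442496), the T-box gene Brachyury that mesoderm formation requires, was listed at 0 in *tw18*/*tw18*, against 6.16 in *tw18*/+ and 18.3 in wild type, and *Mesp1*, which stayed under an FPKM of 1, was listed at 0 there too, with 0.53 in *tw18*/+. The level of *T* in *tw18*/+ was itself below wild type. *Mixl1* (chr1:180693043-180697034), a homeobox gene of the streak, was at 5.76 in *tw18*/*tw18*, 27.5 in *tw18*/+ and 33.9 in wild type, a log2 ratio of -2.26. *Fgf8*, whose loss blocks the departure of cells from the streak, was at 10.1 in *tw18*/*tw18*, 20.9 in *tw18*/+ and 27.6 in wild type. *Etv2*, which specifies blood and endothelial precursors, had 1.98 in *tw18*/+ and was listed at 0 in *tw18*/*tw18*. *Eomes*, the T-box gene that acts upstream of *Mesp1*, had 37 in *tw18*/*tw18*, 58 in *tw18*/+ and 77.1 in wild type, a log2 ratio of -0.65 that did not reach the threshold. The higher genes were at 31.6 against 9.62 (*Pdgfra*), 3.25 against 1.03 (*Aplnr*) and 3.93 against 0.59 (*Kdr*) for *tw18*/*tw18* against *tw18*/+. These 3 encode receptors that mesoderm shares with other tissues.

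The promoters of 4 lower genes are shown, each searched for the core motif of a factor that carries the WNT or Nodal signal. The study lists *T* and *Sp5* as WNT targets and *Tdgf1* as a Nodal target, but *Nanog* as neither. Other lower targets that it lists, *Axin2*, *Gsc* and *Lefty2*, are not shown, so the 4 do not stand for the lower genes. The sequences are the 250 bases before the start site in RefSeq, GRCm38.p6. Capitals mark TCAAAG, a core recognised by the TCF and LEF partners of β-catenin, in *T* and *Sp5*, and TGTNNATT, a core recognised by the SMAD partner FOXH1, in *Tdgf1* and *Nanog*, on either strand. They are *T* (chr17:8434173-8434422, plus strand), *Sp5* (chr2:70474673-70474922, plus strand), *Tdgf1* (chr9:110946159-110946408, minus strand) and *Nanog* (chr6:122707239-122707488, plus strand).
T: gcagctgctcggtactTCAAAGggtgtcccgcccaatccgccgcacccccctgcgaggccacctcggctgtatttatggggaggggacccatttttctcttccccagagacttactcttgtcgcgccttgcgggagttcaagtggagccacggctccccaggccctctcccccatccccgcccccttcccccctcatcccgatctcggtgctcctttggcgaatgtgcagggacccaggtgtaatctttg
Sp5: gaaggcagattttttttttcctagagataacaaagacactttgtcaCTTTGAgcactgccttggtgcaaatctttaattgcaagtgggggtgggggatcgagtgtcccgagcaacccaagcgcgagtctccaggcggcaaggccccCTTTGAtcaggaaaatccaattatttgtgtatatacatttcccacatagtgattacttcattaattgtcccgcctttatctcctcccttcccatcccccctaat
Tdgf1: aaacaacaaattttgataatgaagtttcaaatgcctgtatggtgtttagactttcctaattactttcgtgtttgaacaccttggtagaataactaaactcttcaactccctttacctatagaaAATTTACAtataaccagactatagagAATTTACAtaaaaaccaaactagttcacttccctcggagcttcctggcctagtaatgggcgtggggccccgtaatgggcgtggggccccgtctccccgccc
Nanog: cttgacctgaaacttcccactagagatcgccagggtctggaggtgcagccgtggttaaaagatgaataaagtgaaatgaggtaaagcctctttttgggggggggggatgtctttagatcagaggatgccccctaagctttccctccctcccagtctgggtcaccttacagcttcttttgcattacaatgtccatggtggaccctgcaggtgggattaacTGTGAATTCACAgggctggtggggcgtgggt
The *T* promoter held 1 match, from 234 to 229 bases before the start and on the strand of the gene. The *Sp5* promoter held matches on the other strand at 204 to 199 and 104 to 99 bases. In *Tdgf1* the matches lay on the other strand at 127 to 120 and 101 to 94 bases, and in *Nanog* 1 match on each strand overlapped, at 31 to 24 and 27 to 20 bases. Such short motifs are common. TCAAAG occurred in 13.8% of 32851 RefSeq promoters of this length and TGTNNATT in 10.9%. Among promoters of the genes measured here the shares were 10.4% and 6.68%, among those of the higher genes 11.4% and 7.51%, and among those of the lower genes 12% and 7.83%. The shares of higher and lower genes were thus close to each other, and a match is a description of the letters and not of binding.

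In the Nodal pathway, the ligand and the transducers stayed within the threshold and several targets and cofactors were lower. Of 27 measured genes, 6 were lower, 1 was higher and the median difference was -0.27 (-0.020 with equal FPKM sums). *Nodal* itself reached an FPKM of 17.1 in *tw18*/*tw18*, 25.7 in *tw18*/+ and 24.2 in wild type. The receptor genes *Acvr1b* and *Acvr2b* were at 8.85 against 7.26 and 18.6 against 25 (*tw18*/*tw18* against *tw18*/+), and the transducers *Smad2*, *Smad3* and *Smad4* were at 9.21 against 10.1, 8.0 against 7.61 and 33.5 against 40.1. *Tdgf1* (chr9:110939603-110946158), the membrane coreceptor Cripto whose promoter is shown above, was at 19.2 in *tw18*/*tw18*, 72 in *tw18*/+ and 74.5 in wild type, a log2 ratio of -1.91 with a counting interval of -2.06 to -1.76. The related coreceptor gene *Cfc1* was at 5.58 against 12.7 and the ligand gene *Gdf1* at 1.04 against 5.34. The feedback inhibitors *Lefty1* and *Lefty2*, which are alike in sequence, were at 6.11 against 12.9 and 0.784 against 4.0, and *Gsc*, an organizer homeobox gene, at 2.53 against 6.76. The inhibitor *Cer1* was the gene that was higher, at 139.5 in *tw18*/*tw18*, 61.3 in *tw18*/+ and 46.6 in wild type.

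Epiblast markers were lower as a group. Of 8 defining markers 5 were lower and none was higher, and their summed FPKM was 1778 in wild type, 1894 in *tw18*/+ and 897 in *tw18*/*tw18*. In the wider list of 39 measured epiblast and pluripotency genes, 11 were lower and 6 higher, with a median difference of -0.41. With equal FPKM sums the median was -0.16 with 6 genes lower and 8 higher. After centring within expression level, an alternative chosen after seeing the data, the median was -0.10 with 8 genes lower and 5 higher. The median thus remained below 0 under each scaling tried. *Pou5f1*, the pluripotency factor OCT4, reached an FPKM of 628 in wild type, 721 in *tw18*/+ and 274 in *tw18*/*tw18*. *Nanog* (chr6:122707489-122714633) had 23 in wild type, 27.1 in *tw18*/+ and 5.35 in *tw18*/*tw18*, a log2 ratio of -2.34 with a counting interval of -2.56 to -2.12. *Sox2* had 13 in wild type, 11.3 in *tw18*/+ and 5.1 in *tw18*/*tw18*. *Trh*, the precursor of thyrotropin-releasing hormone and an epiblast transcript at this stage, showed the largest ratio of the list, with 100.04 in wild type, 89 in *tw18*/+ and 12.1 in *tw18*/*tw18* and a log2 ratio of -2.88. *Dnmt3b*, the de novo DNA methyltransferase of the epiblast, was at 719 in wild type, 733 in *tw18*/+ and 359 in *tw18*/*tw18*, and the neural and epiblast factors *Foxd3*, *Zic2* and *Zic5* were at 3.78 against 10.4, 15.6 against 36.1 and 5.03 against 14.7 (*tw18*/*tw18* against *tw18*/+). Other epiblast genes lay within the threshold, among them *Fgf5* (53 against 70.3), *Otx2* (67.5 against 99.4), *Utf1* (114 against 160.2) and *Sox3* (8.69 against 8.61).

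The 6 genes of this list that were higher made up 15.4% of it, near the 14.9% over all genes. Of the 37 listed genes at an FPKM of 1 in both libraries, 4 were higher and 11 lower. *Esrrb* and *Klf2* reached that level only in *tw18*/*tw18*. The 6 include genes of the network of naive pluripotency, which the blastocyst uses and the epiblast turns off after implantation. *Esrrb* had 3.91 in *tw18*/*tw18*, 0.939 in *tw18*/+ and 1.19 in wild type, *Klf2* 2.93 in *tw18*/*tw18*, 0.857 in *tw18*/+ and 0.439 in wild type and *Zfp42* 7.41 in *tw18*/*tw18*, 3.69 in *tw18*/+ and 3.46 in wild type. *Tbx3* had 13.5 in *tw18*/*tw18*, 5.05 in *tw18*/+ and 6.51 in wild type, *Tfcp2l1* 6.99 against 3.42 and *Dppa2* 12.1 against 5.21 (*tw18*/*tw18* against *tw18*/+). Of these genes, *Esrrb* and *Tbx3* are also expressed in extra-embryonic lineages, whose markers are given below. Of 10 germ cell precursor genes 3 were higher (*Dppa3*, *Prdm1* and *Tfap2c*) and none lower, against 14.9% and 5.65% over all genes. Of the 9 at an FPKM of 1 in both libraries, 2 were higher, and over all such genes 9.61% were. *Tfap2c* is also among the extra-embryonic ectoderm markers below. *Prdm1*, which also marks visceral endoderm and trophoblast, was at 9.62 in *tw18*/*tw18*, 3.76 in *tw18*/+ and 5.27 in wild type, and *Dppa3* was listed at 0 in both other libraries and had 1.34 in *tw18*/*tw18*.

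WNT pathway genes did not shift in 1 direction. Of 51 measured, 3 were lower (5.88%), 10 higher (19.6%) and the median difference was 0.049. Over all genes 5.65% were lower and 14.9% higher. Of the 46 at an FPKM of 1 in both libraries, 2 were lower and 7 higher. The lower genes were the targets *Axin2*, at 14.7 in wild type, 13.8 in *tw18*/+ and 5.5 in *tw18*/*tw18*, and *Sp5*, at 4.21 in wild type, 3.59 in *tw18*/+ and 1.02 in *tw18*/*tw18*, and the ligand gene *Wnt2b*, which had 1.19 in *tw18*/+ and was listed at 0 in *tw18*/*tw18*. *Wnt3*, the ligand required for the streak, had 5.16 in wild type, 3.38 in *tw18*/+ and 2.54 in *tw18*/*tw18*, and *Ctnnb1*, which encodes β-catenin, 241 in wild type, 211 in *tw18*/+ and 221 in *tw18*/*tw18*. The nuclear factors *Lef1* and *Tcf7* were at 15.5 against 26.8 and 18.5 against 28.2 (*tw18*/*tw18* against *tw18*/+), log2 ratios of -0.79 and -0.61 that missed the threshold. Among other ligand genes, *Wnt4* was higher at 11.2 against 3.32, *Wnt5a* at 5.83 against 1.98, *Wnt6* at 5.55 against 1.76 and *Wnt7b* at 2.33 against 1.12. Among secreted antagonists, *Sfrp5* of the anterior visceral endoderm was at 19.1 in wild type, 19.6 in *tw18*/+ and 64.4 in *tw18*/*tw18*, *Sfrp4* was at 33.7 against 8.64, and *Dkk1* had 24.3 in wild type, 21.2 in *tw18*/+ and 23 in *tw18*/*tw18*.

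BMP pathway genes were higher more often than the background, with 14 of 33 measured genes higher, 1 lower and a median difference of 0.70. Of the 28 that reached an FPKM of 1 in both libraries, 10 were higher. The ligand *Bmp4*, made by extra-embryonic ectoderm, was at 5.78 in *tw18*/*tw18*, 1.09 in *tw18*/+ and 2.43 in wild type, and *Bmp2* at 31 in *tw18*/*tw18*, 10.02 in *tw18*/+ and 14.1 in wild type. *Bmp7*, *Bmp8a* and *Bmp8b* were at 3.61 against 0.975, 3.71 against 0.571 and 5.43 against 1.25 (*tw18*/*tw18* against *tw18*/+). Among receptors, the type I gene *Bmpr1a* was at 25.1 against 32.4 and *Bmpr1b* was lower, at 0.364 against 1.77. *Eng* (chr2:32646595-32682669), the TGFβ and BMP coreceptor endoglin of endothelium and mesoderm, had 15.6 in *tw18*/*tw18*, 2.51 in *tw18*/+ and 2.72 in wild type, a log2 ratio of 2.64 with a counting interval of 2.38 to 2.90. *Acvrl1*, a receptor that partners with endoglin, was at 2.1 against 0.734. The transducers *Smad1* and *Smad5* were at 20.1 against 16.6 and 15.4 against 12.9. Direct targets differed among themselves, with *Id1* at 57.2 in *tw18*/*tw18*, 18.8 in *tw18*/+ and 31.8 in wild type and *Id3* at 60.6 in *tw18*/*tw18*, 85.8 in *tw18*/+ and 75.1 in wild type, while *Smad6* had 5.7 against 3.04 and *Smad7* 14.5 against 14.8. The transcription factors *Hand1*, *Hand2*, *Gata2* and *Gata3*, which trophoblast, lateral mesoderm or decidua also express, were at 34.6 against 14, 63 against 16.3, 19.8 against 8.08 and 10.8 against 3.45.

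In the FGF pathway 3 of 26 genes were higher and 3 lower (11.5% each), against 14.9% and 5.65% over all genes. The lower ones were the ligands *Fgf8*, *Fgf17* and *Fgf15*, the last at 22.2 in wild type, 22 in *tw18*/+ and 8.98 in *tw18*/*tw18*. The feedback genes of ERK signalling *Dusp6*, *Etv5* and *Spry2* lay within the threshold, with *Dusp6* at 19.7 against 32.5, *Etv5* at 54.7 against 91.1 and *Spry2* at 12.1 against 17. *Fgf4* had 7.76 against 3.92, and the receptor gene *Fgfr2*, which trophoblast uses, was higher at 8.41 against 2.56. In the Hedgehog list 3 of 11 genes were higher (*Cdon*, *Gas1* and *Ihh*) and *Gli2* was lower, at 1.78 against 4.14. Of the 10 at an FPKM of 1 in both libraries, 2 were higher and 1 lower. In the Notch list 6 of 15 were higher and none lower, but 4 of the 6 reached an FPKM of 1 only in *tw18*/*tw18*, among them the endothelial genes *Dll4* (2.48 against 0.18) and *Notch4* (3.18 against 0.707), and none was higher with an FPKM of at least 5 as the filter. In the retinoic acid list 8 of 17 were higher and 1 lower, with 3 of the 8 at an FPKM of 1 only in *tw18*/*tw18*, and *Stra6*, a receptor for the retinol carrier, was at 8.16 in wild type, 12.9 in *tw18*/+ and 59 in *tw18*/*tw18*.

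Genes of the visceral endoderm stayed near or above their *tw18*/+ level. Of 40 measured genes, 9 were higher, 2 were lower and the median difference was 0.43, and the 7 defining markers summed to 664 in wild type, 646 in *tw18*/+ and 826 in *tw18*/*tw18*. Markers of the anterior visceral endoderm did not all move alike, and *Cer1*, *Hesx1* and *Hhex* were higher. *Cer1* had 1.19 as its log2 ratio, *Hesx1* was at 11.3 in *tw18*/*tw18*, 2.78 in *tw18*/+ and 3.18 in wild type, and *Hhex* was at 19.1 in *tw18*/*tw18*, 7.79 in *tw18*/+ and 7.16 in wild type. *Lefty1*, which the anterior visceral endoderm also expresses, was lower, and *Lhx1* and *Otx2* lay within the threshold. The general endoderm factors *Gata4* and *Gata6* were higher, at 46.4 against 23 and 11.3 against 5.28 (*tw18*/*tw18* against *tw18*/+), whereas *Foxa2* had 11.7 against 10.7 and *Sox17* 6.23 against 3.5. Transport proteins were mostly similar, with 7 apolipoprotein genes between 93.6% and 158% of their *tw18*/+ level. *Apoa1* had 337 in *tw18*/*tw18*, 233 in *tw18*/+ and 246 in wild type, and *Ttr* had 158 in *tw18*/*tw18*, 119 in *tw18*/+ and 124 in wild type. *Rbp4*, the retinol carrier, was higher at 159 in *tw18*/*tw18*, 79 in *tw18*/+ and 83.8 in wild type, and *Afp*, which encodes alpha-fetoprotein, had 59.5 in *tw18*/*tw18*, 110.3 in *tw18*/+ and 106 in wild type, a log2 ratio of -0.89.

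Extra-embryonic ectoderm and trophoblast genes were higher in 21 of 35 cases and lower in none, with a median difference of 1.24. Of the 31 at an FPKM of 1 in both libraries, 18 were higher. The 5 defining markers of extra-embryonic ectoderm summed to 12.4 in wild type, 10.1 in *tw18*/+ and 34.2 in *tw18*/*tw18*, and 4 of them were higher. *Elf5* had 1.93 in wild type, 1.42 in *tw18*/+ and 4.85 in *tw18*/*tw18*, *Tfap2c* 6.36 in wild type, 5.99 in *tw18*/+ and 18.4 in *tw18*/*tw18* and *Cdx2* 0.473 in wild type, 0.677 in *tw18*/+ and 1.19 in *tw18*/*tw18*. Of the 5 giant cell and ectoplacental cone markers, 3 were measured, of which *Prl3d1* and *Hand1* were higher and none was lower. The 5 summed to 126 in wild type, 78.4 in *tw18*/+ and 240.1 in *tw18*/*tw18*. *Prl3d1* and *Hand1* made up most of these sums, *Hand1* with 9.31 in wild type, 14 in *tw18*/+ and 34.6 in *tw18*/*tw18*. *Prl3d1*, placental lactogen of giant cells, was at 113 in wild type, 61.5 in *tw18*/+ and 202 in *tw18*/*tw18*. Its near copies *Prl3d2* and *Prl3d3* share sequence with it, and the 3 together summed to 184 in wild type, 98.4 in *tw18*/+ and 358 in *tw18*/*tw18*. *Cts7*, a cathepsin of the placenta, had 24.1 in wild type, 7.29 in *tw18*/+ and 31.9 in *tw18*/*tw18*. For this group the *tw18*/+ library was often the lowest of the 3, as for *Prl3d1* and *Cts7*. The extra-embryonic part had been cut off before extraction, and the part of these transcripts in the other results was not tested.

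Genes of the decidua, the maternal tissue around the embryo, were higher in 29 of 39 cases and lower in none, with a median difference of 1.34. Their 8 defining markers summed to 1674 in wild type, 215 in *tw18*/+ and 571 in *tw18*/*tw18*, and none of them was listed at 0 in *tw18*/+ or *tw18*/*tw18*. The wild-type sum rested on *Prl8a2*, a decidual prolactin, which had 377 in *tw18*/*tw18*, 155 in *tw18*/+ and 1504 in wild type. Without *Prl8a2* the other 7 markers summed to 169.8 in wild type, 59.6 in *tw18*/+ and 193 in *tw18*/*tw18*. *Prl3c1* had 25.2 in *tw18*/*tw18*, 13.2 in *tw18*/+ and 121 in wild type, and *Timp3* had 81.9 in *tw18*/*tw18*, 22.3 in *tw18*/+ and 209.8 in wild type, so both were highest in wild type. Other genes of the list were highest in *tw18*/*tw18*. *Hoxa11*, a homeobox gene of uterine stroma, had 30.8 in *tw18*/*tw18*, 6.87 in *tw18*/+ and 3.67 in wild type, and *Hoxa10* had 32.9 in *tw18*/*tw18*, 11.8 in *tw18*/+ and 7.64 in wild type. *Tdo2*, a tryptophan dioxygenase of decidual cells, had 179 in *tw18*/*tw18*, 43.1 in *tw18*/+ and 37 in wild type, and *Cyp11a1*, the first enzyme of steroid synthesis, 71.8 in *tw18*/*tw18*, 19.1 in *tw18*/+ and 21.2 in wild type. *Des*, the intermediate filament desmin, was at 201 in *tw18*/*tw18*, 65.9 in *tw18*/+ and 45.5 in wild type, and the hormone receptor genes *Pgr* and *Esr1* at 11.2 against 3.36 and 8.91 against 2.92 (*tw18*/*tw18* against *tw18*/+). Over the 39 genes the median difference of log2(FPKM + 1) for *tw18*/+ minus wild type was 0.0063. The list as a whole thus had no shift in 1 direction between wild type and *tw18*/+, while its genes differed both ways. *Prl8a2*, *Prl3c1* and *Timp3* were higher in wild type, and *Hoxa10*, *Hoxa11* and *Des* were higher in *tw18*/+. The part of decidual transcripts in the other differences was not tested.

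**Figure D4:**
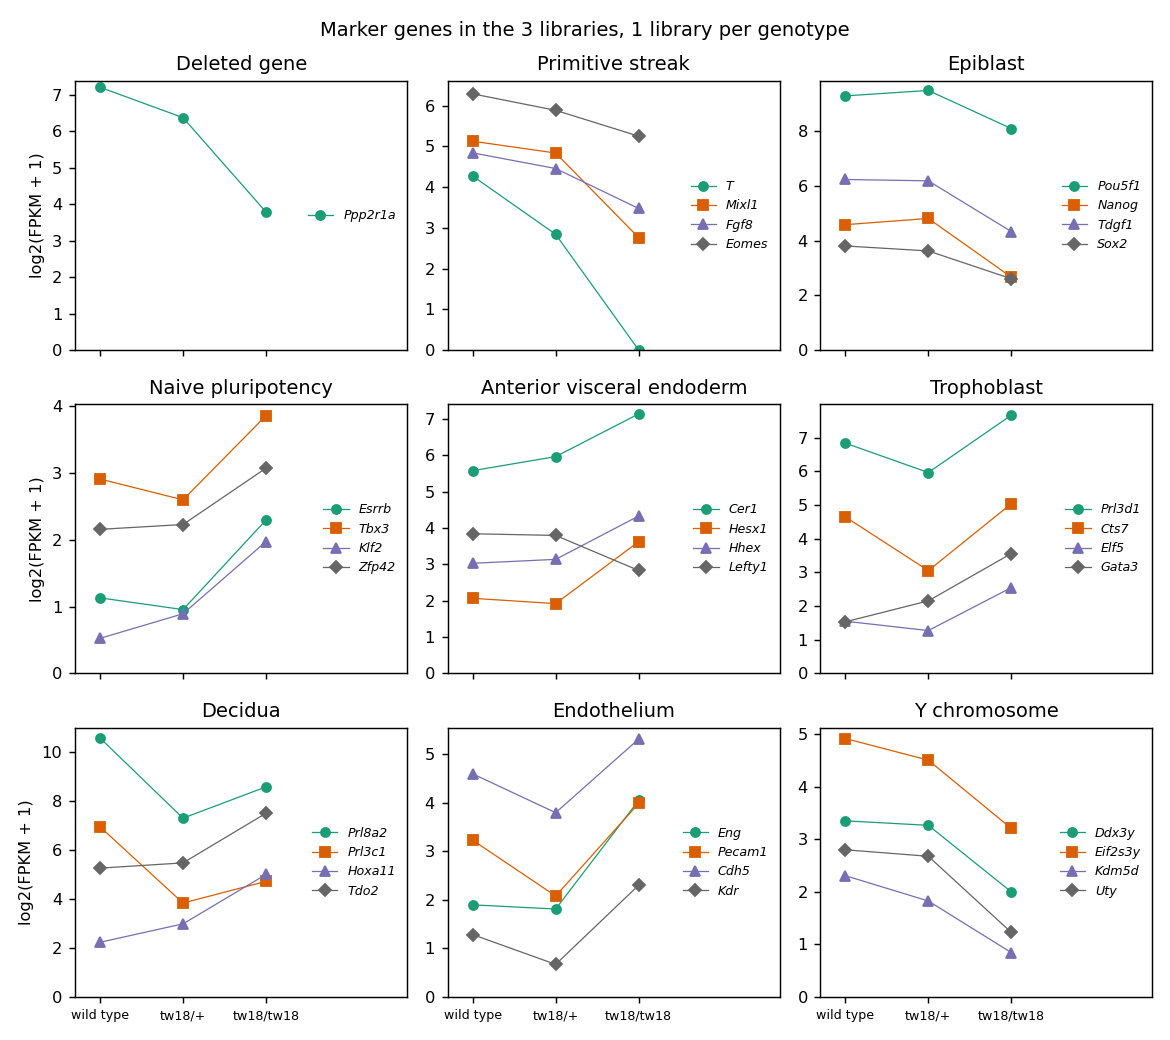
log2(FPKM + 1) of marker genes in the wild-type, *tw18*/+ and *tw18*/*tw18* libraries, 1 point per library, joined by lines that serve the eye, in 9 panels by tissue. Streak and epiblast genes are lowest in *tw18*/*tw18*, with *T* at 0, while endothelial and trophoblast genes are highest there. The naive pluripotency genes shown, all from the higher genes of their list, are also highest there. *Prl8a2* and *Prl3c1* are highest in wild type.

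Hox genes, which the embryo at this stage has not yet activated apart from the earliest posterior ones, were higher throughout. The 9 measured of 39 in the table were *Hoxa9*, *Hoxa10*, *Hoxa11*, *Hoxd3*, *Hoxd4*, *Hoxd8*, *Hoxd9*, *Hoxd10* and *Hoxd11*, all higher, with a median difference of 1.66. All of them belong to the A and D clusters, and the abdominal members among them are those expressed in the uterus. *Hoxd10* had 19.1 in *tw18*/*tw18*, 4.71 in *tw18*/+ and 2.9 in wild type, *Hoxd11* 13.1 in *tw18*/*tw18*, 2.14 in *tw18*/+ and 1.66 in wild type and *Hoxa9* 5.64 in *tw18*/*tw18*, 1.1 in *tw18*/+ and 0.45 in wild type. *Hoxd3*, which was listed at 0 in *tw18*/+ and had 2.16 in *tw18*/*tw18*, *Hoxd4* (1.79 against 0.203) and *Hoxd8* (4.8 against 0.473) entered through *tw18*/*tw18* only. The other 6 reached an FPKM of 1 in both libraries, and with an FPKM of at least 5 as the filter 5 were higher.

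Extracellular matrix genes were higher in large numbers. Of 25 measured collagen genes 18 were higher, 1 lower (*Col9a2*) and the median difference was 1.01. Of the 17 at an FPKM of 1 in both libraries, 12 were higher. The fibrillar collagens stood out, as *Col1a1* had 35.9 in wild type, 32 in *tw18*/+ and 174 in *tw18*/*tw18*, *Col1a2* 7.29 in wild type, 6.63 in *tw18*/+ and 35.5 in *tw18*/*tw18* and *Col3a1* 5.44 in wild type, 5.58 in *tw18*/+ and 31.9 in *tw18*/*tw18*. The 5 fibrillar chains *Col1a1*, *Col1a2*, *Col3a1*, *Col5a1* and *Col5a2* summed to 52.4 in wild type, 48.1 in *tw18*/+ and 257 in *tw18*/*tw18*. The basement membrane collagens *Col4a1* and *Col4a2*, made in quantity by endoderm, were at 174 against 94 and 78.2 against 40.7, below the threshold. Matricellular and microfibril genes were higher in 23 of 31 cases and lower in none, with a median difference of 1.28. Of the 28 at an FPKM of 1 in both libraries, 20 were higher. *Mgp*, matrix Gla protein, had 16.2 in wild type, 43 in *tw18*/+ and 180.2 in *tw18*/*tw18*, *Sparc* 136 in wild type, 159.6 in *tw18*/+ and 358 in *tw18*/*tw18*, *Fbn1*, the microfibril protein fibrillin-1, 1.69 in wild type, 2.43 in *tw18*/+ and 13 in *tw18*/*tw18*, and *Dcn*, the proteoglycan decorin, 4.0 in wild type, 3.15 in *tw18*/+ and 17.8 in *tw18*/*tw18*. *Fn1*, the fibronectin gene that epiblast and endoderm express, had 39.2 in wild type, 30.4 in *tw18*/+ and 43.7 in *tw18*/*tw18*.

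Among laminins, integrins and other basement membrane genes 10 of 24 were higher and none lower. *Lama1*, *Lamb1* and *Lamc1*, the chains of laminin-111, were at 51.5 against 31.4, 83 against 47.6 and 156 against 82.5 (*tw18*/*tw18* against *tw18*/+), each below the threshold, while *Lamb2* was higher at 33.5 against 7.46. Matrix proteases and inhibitors were higher in 11 of 23 cases and lower in 2. *Mmp9* had 23.1 in *tw18*/*tw18*, 6.31 in *tw18*/+ and 27 in wild type, lowest in *tw18*/+, and *Timp2* 14.2 in *tw18*/*tw18*, 5.24 in *tw18*/+ and 4.26 in wild type. Among smooth muscle and contractile genes 9 of 18 were higher and 1 lower (*Cnn1*), with *Acta2* at 7.0 in *tw18*/*tw18*, 1.37 in *tw18*/+ and 1.38 in wild type. Genes linked to the epithelial to mesenchymal transition were higher in 12 of 30 cases and lower in none. Of the genes at an FPKM of 1 in both libraries, 8 of 26 in this list were higher. In the same way 7 of 21 basement membrane genes, 8 of 18 proteases and inhibitors and 7 of 15 contractile genes were higher. Over all such genes the share was 9.61%. The epithelial members stayed within the threshold, with *Cdh1*, which encodes E-cadherin, at 133 in *tw18*/*tw18*, 142 in *tw18*/+ and 125 in wild type, as did *Cdh2*, which encodes N-cadherin, at 24.3 in *tw18*/*tw18*, 21 in *tw18*/+ and 20.03 in wild type. *Snai1*, the repressor of *Cdh1* in the streak, had 17.3 in *tw18*/*tw18*, 13.8 in *tw18*/+ and 21.6 in wild type. *Vim* and *S100a4* were higher, at 55.2 against 22.8 and 194 against 58, as was *Tgfbr2*, the type II TGFβ receptor, at 21.4 against 3.96.

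Endothelial genes were higher in 20 of 25 cases and lower in none, with a median difference of 1.13. Of the 17 at an FPKM of 1 in both libraries, 13 were higher. Their 6 defining markers were all higher and summed to 38.7 in wild type, 23.4 in *tw18*/+ and 74.4 in *tw18*/*tw18*. *Cdh5*, which encodes VE-cadherin, had 23.2 in wild type, 12.9 in *tw18*/+ and 38.8 in *tw18*/*tw18*, *Pecam1* 8.39 in wild type, 3.23 in *tw18*/+ and 14.9 in *tw18*/*tw18* and *Tek* 0.28 in wild type, 1.04 in *tw18*/+ and 3.25 in *tw18*/*tw18*. Wild type lay between the other libraries for *Cdh5* and *Pecam1*. Globin genes of adult erythrocytes were present in all libraries, and the embryonic globins *Hba-x*, *Hbb-y* and *Hbb-bh1* were listed at 0 in each. The globin copies are near-identical and were divided differently among the libraries. *Hba-a1* had 52.2 in wild type, 27.1 in *tw18*/+ and 0.0070 in *tw18*/*tw18*, while *Hba-a2* had 0.0201, 26.9 and 127. Both together summed to 52.2 in wild type, 54 in *tw18*/+ and 127 in *tw18*/*tw18*, so alpha-globin was higher and the low value of *Hba-a1* belongs to a single copy. The adult beta-globins *Hbb-b1*, *Hbb-b2* and *Hbb-bs* summed to 80.9 in wild type, 98 in *tw18*/+ and 235 in *tw18*/*tw18*.

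Immune genes were higher in 12 of 18 measured cases and lower in 3 (*C1qa*, *Coro1a* and *Gzmd*), most of them at an FPKM below 10, and 6 of the 12 reached an FPKM of 1 only in *tw18*/*tw18*. *Cd74*, the invariant chain of antigen presentation, had 12.6 in *tw18*/*tw18*, 3.45 in *tw18*/+ and 2.0 in wild type, and *Lyz2*, a macrophage lysozyme, 13.1 in *tw18*/*tw18*, 2.85 in *tw18*/+ and 3.77 in wild type. In the list of MHC class I and interferon-responsive genes 9 of 21 were higher and 1 lower. Of the 17 at an FPKM of 1 in both libraries, 6 were higher and none lower. *Ly6a*, also known as Sca-1, was at 387 in *tw18*/*tw18*, 93.7 in *tw18*/+ and 67.4 in wild type, *Isg15* at 8.28 in *tw18*/*tw18*, 1.92 in *tw18*/+ and 1.63 in wild type and *Irf7* at 20.01 in *tw18*/*tw18*, 5.29 in *tw18*/+ and 2.42 in wild type. The class I genes *H2-K1* and *H2-D1* were at 11.1 against 10.2 and 10.7 against 8.69. *B2m*, the light chain of class I, had 35 in *tw18*/*tw18*, 19.2 in *tw18*/+ and 15.8 in wild type.

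**Figure D5:**
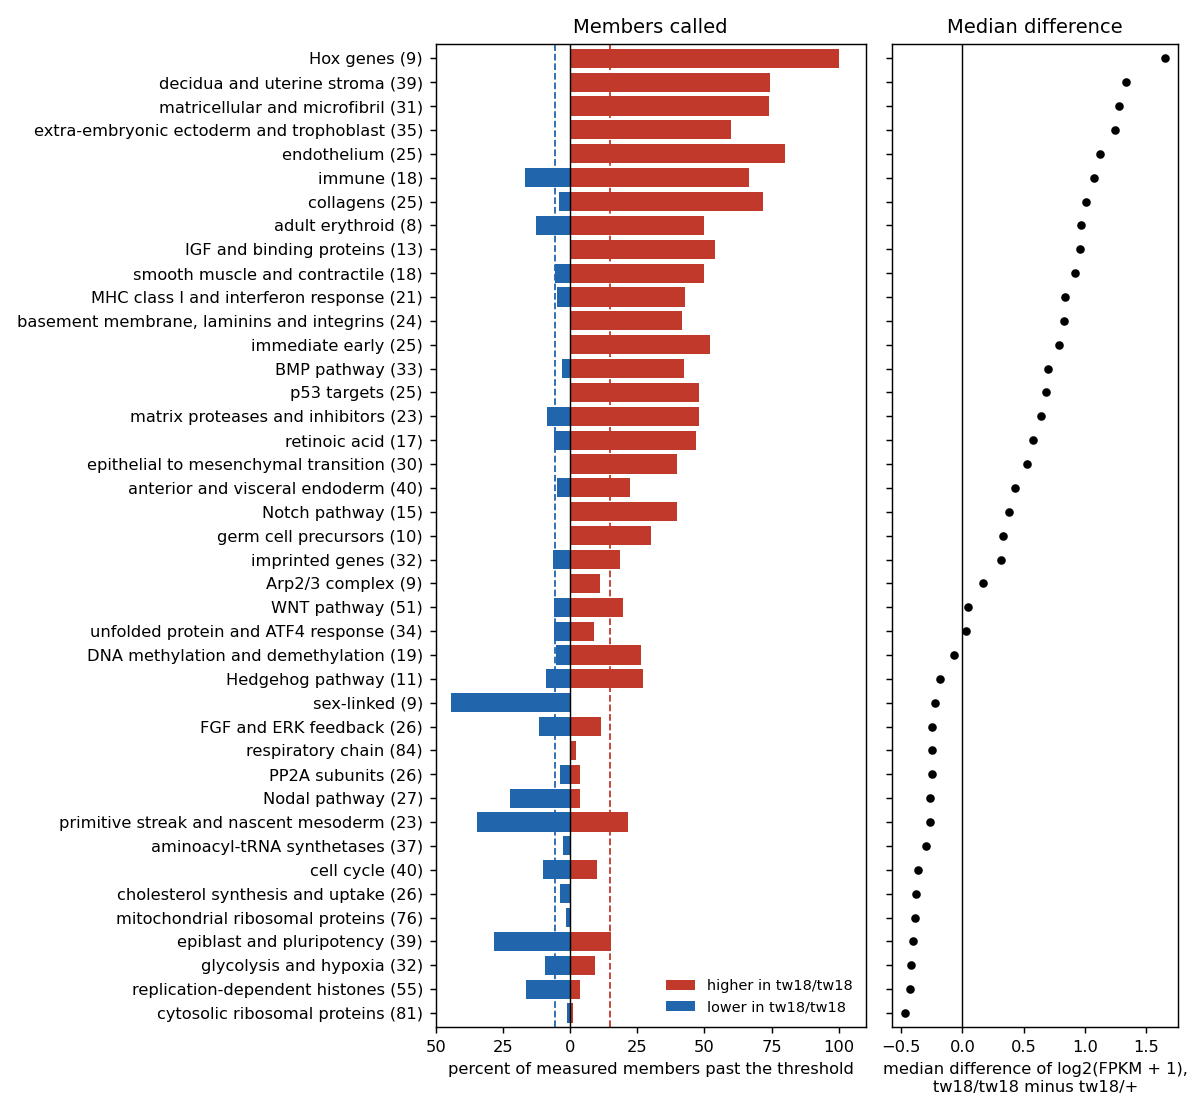
Left, percent of the measured members of each gene list (number in brackets, lists of at least 8) that were higher (red) or lower (blue) in *tw18*/*tw18* than in *tw18*/+, with dashed lines at the shares over all 12846 genes, 14.9% and 5.65%. Right, median difference of log2(FPKM + 1) of each list. The Hox list lies at the top, followed by the decidua, matricellular, trophoblast and endothelial lists. Epiblast, glycolysis, histone and ribosomal protein lists lie at the bottom.

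Growth factor genes of the IGF system were higher in 7 of 13 cases and lower in none. *Igf2*, the paternally expressed fetal growth factor, had 107 in *tw18*/*tw18*, 42 in *tw18*/+ and 47.5 in wild type, *Igf1* 14.8 in *tw18*/*tw18*, 3.09 in *tw18*/+ and 2.22 in wild type and *Igfbp7* 34 in *tw18*/*tw18*, 5.56 in *tw18*/+ and 3.56 in wild type. *Igf1r*, the receptor gene, had 6.3 in *tw18*/*tw18*, 11.6 in *tw18*/+ and 14.1 in wild type, a log2 ratio of -0.88. Imprinted genes were higher in 6 of 32 cases, near the background, and lower in 2. *H19*, which lies beside *Igf2* and is expressed from the maternal copy, was at 531 in *tw18*/*tw18*, 207 in *tw18*/+ and 281 in wild type, *Cdkn1c* at 20.6 in *tw18*/*tw18*, 8.93 in *tw18*/+ and 10.7 in wild type and *Dio3* at 27.5 in *tw18*/*tw18*, 5.69 in *tw18*/+ and 2.98 in wild type, while *Peg3* (63.6 against 38.9), *Meg3* (70.3 against 54) and *Grb10* (239 against 167) stayed within the threshold. *Snurf*, 1 of the lower genes, shares its locus and transcripts with *Snrpn*, and both together summed to 119 in wild type, 144 in *tw18*/+ and 69.2 in *tw18*/*tw18*.

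Targets of the tumour suppressor p53 were higher in 12 of 25 cases and lower in none, with a median difference of 0.68. *Cdkn1a*, the cell cycle inhibitor p21, had 5.88 in wild type, 7.11 in *tw18*/+ and 27.3 in *tw18*/*tw18*, *Ccng1* 19.7 in wild type, 37.8 in *tw18*/+ and 94.6 in *tw18*/*tw18*, *Phlda3* 6.32 in wild type, 11.9 in *tw18*/+ and 36.5 in *tw18*/*tw18*, *Trp53inp1* 6.55 in wild type, 6.84 in *tw18*/+ and 23.7 in *tw18*/*tw18* and *Eda2r* 1.54 in wild type, 2.56 in *tw18*/+ and 7.83 in *tw18*/*tw18*. The apoptosis genes *Bax* and *Pmaip1* stayed within the threshold, at 61.1 against 54.8 and 19.8 against 16.4 (*tw18*/*tw18* against *tw18*/+), and so did *Mdm2*, the feedback inhibitor, at 47.3 against 30.3. Immediate early genes were higher in 13 of 25 cases, 4 of them with an FPKM of 1 only in *tw18*/*tw18*, with *Fosl2* at 5.66 in wild type, 5.29 in *tw18*/+ and 22.9 in *tw18*/*tw18*, *Jun* at 5.23 in wild type, 2.95 in *tw18*/+ and 9.97 in *tw18*/*tw18* and *Egr1* at 3.28 in wild type, 0.962 in *tw18*/+ and 3.62 in *tw18*/*tw18*. For *Egr1* the wild-type value lay next to that of *tw18*/*tw18*. In the unfolded protein and ATF4 response 3 of 34 genes were higher and 2 lower, and *Hspa5*, the chaperone BiP, had 251 in wild type, 251 in *tw18*/+ and 267 in *tw18*/*tw18*.

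Lists of highly expressed housekeeping genes lay below 0 with few genes past the threshold. Cytosolic ribosomal proteins had a median difference of -0.47 with 1 of 81 higher (*Rpl34*) and 1 lower (*Rpl30*), mitochondrial ribosomal proteins -0.38 with 1 of 76 lower (*Mrpl40*), and the respiratory chain -0.25 with 2 of 84 higher (*Atp5s* and *Cox7a1*). After centring within expression level, an alternative chosen after seeing the data, the medians of these lists were -0.070, -0.23 and 0.078, and that of the respiratory chain changed its sign. Glycolysis and hypoxia genes had 3 higher and 3 lower of 32. *Ldha*, lactate dehydrogenase A, was at 908 in *tw18*/*tw18*, 1899.6 in *tw18*/+ and 1759 in wild type and *Pdk1* at 6.64 in *tw18*/*tw18*, 13.6 in *tw18*/+ and 12.9 in wild type, while *Vegfa* was higher at 28.2 in *tw18*/*tw18*, 11 in *tw18*/+ and 11.8 in wild type.

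Replication-dependent histone genes were lower in 9 of 55 cases and higher in 2, with a median difference of -0.43. With equal FPKM sums 5 were lower and the median was -0.21, and against wild type 22 were lower. Of 40 cell cycle genes 4 were higher (*Cdkn1a*, *Cdkn1c*, *Cdkn2a* and *Cdkn2c*), a share below the 14.9% over all genes, and 4 were lower (*Ccnd1*, *Ccnd2*, *Mycn* and *Cdk8*), of which *Cdk8* was listed at 0 in *tw18*/*tw18*. The 4 higher genes encode inhibitors of cyclin-dependent kinases, and 2 of them reached an FPKM of 1 only in *tw18*/*tw18*. *Ccnd1*, cyclin D1, was at 54.7 in wild type, 46.8 in *tw18*/+ and 19.6 in *tw18*/*tw18*, and *Mycn* at 56.3 in wild type, 58 in *tw18*/+ and 28 in *tw18*/*tw18*. The helicase genes *Mcm2* to *Mcm7* lay between 54.1% and 76.5% of *tw18*/+, none past the threshold, as was the mitotic gene *Plk1* (58.6 against 80.8), while *Aurka* (54.2 against 58.7) and *Mki67* (68.2 against 73.3) were closer to it. In the DNA methylation list 5 of 19 were higher and 1 lower, and the 5 include *Dnmt3a*, which was listed at 0 in *tw18*/+. After centring within expression level 3 were higher. *Tet2* had 1.89 in wild type, 1.97 in *tw18*/+ and 6.84 in *tw18*/*tw18*, *Uhrf1* 117 in wild type, 114 in *tw18*/+ and 70.6 in *tw18*/*tw18* and *Dnmt1* 61 in wild type, 60.9 in *tw18*/+ and 54.3 in *tw18*/*tw18*. Nuclear non-coding RNAs were higher in 3 of 7 cases, with *Malat1* at 160.4 in wild type, 134 in *tw18*/+ and 328 in *tw18*/*tw18* and *Neat1* at 8.32 in wild type, 5.93 in *tw18*/+ and 21.6 in *tw18*/*tw18*.

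Sex-linked genes differed between the libraries. All 4 Y-linked genes measured, *Ddx3y*, *Eif2s3y*, *Kdm5d* and *Uty*, were lower in *tw18*/*tw18*, between 24.8% and 37.9% of the *tw18*/+ level, and they summed to 48.3 in wild type, 38.2 in *tw18*/+ and 13.3 in *tw18*/*tw18*. Their X-linked copies *Ddx3x*, *Eif2s3x*, *Kdm5c* and *Kdm6a* lay between 85.3% and 132% of *tw18*/+. *Xist*, the RNA that coats the inactive X chromosome, had 105 in *tw18*/*tw18*, 55.2 in *tw18*/+ and 27.9 in wild type, a log2 ratio of 0.93. Y-linked transcripts were thus scarcer in *tw18*/*tw18* than in both other libraries, and the part of this difference in the other results was not tested. On the X chromosome 8.81% of 477 genes were lower and 14.0% higher.

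The extreme genes of the comparison, by the difference of log2(FPKM + 1) taken over genes that reached an FPKM of 10 in a library, include values that rest on how fragments were assigned. *Lars2*, the gene of the leucyl-tRNA synthetase of mitochondria, was listed at 0 in *tw18*/*tw18* with 9689 in *tw18*/+ and 11199 in wild type, and *Cdk8*, a kinase of the Mediator complex, was listed at 0 with 34.1 and 44.5. *Dnmt3a* was listed at 0 in *tw18*/+ but had 35.1 in wild type and 24.2 in *tw18*/*tw18*. An exact 0 beside such values can be a failed estimate, and no fold is given. *Amd2*, a near copy of *Amd1*, was at 88.7 in wild type, 0.0697 in *tw18*/+ and 48.1 in *tw18*/*tw18*, while both genes together summed to 88.7 in wild type, 91 in *tw18*/+ and 77.6 in *tw18*/*tw18*. *Eif3j2*, a near copy of another gene, was at 2.62 in wild type, 15.7 in *tw18*/+ and 3.96 in *tw18*/*tw18*, so the library that stood apart was *tw18*/+.

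*Hba-a1*, *Hbb-bs*, *Prl3d2* and *Snurf*, also among the extremes, share sequence or transcripts with other genes as described above. Among the remaining increases, *Psg29*, a pregnancy-specific glycoprotein of trophoblast, had 38.9 in *tw18*/*tw18*, 4.84 in *tw18*/+ and 19.8 in wild type, *Prap1*, a secreted protein of the pregnant uterus, 53.7 in *tw18*/*tw18*, 10.01 in *tw18*/+ and 12.3 in wild type, and *Ahnak*, a large scaffold protein, 36.5 in *tw18*/*tw18*, 4.99 in *tw18*/+ and 4.71 in wild type. The chemokine gene *Cxcl14* had 88.8 in *tw18*/*tw18*, 15.9 in *tw18*/+ and 14.4 in wild type. *Plk2*, a polo-like kinase, had 13.8 in *tw18*/*tw18*, 2.13 in *tw18*/+ and 0.646 in wild type. Among the remaining decreases, *Socs2*, a feedback inhibitor of cytokine and growth hormone signalling, had 5.05 in *tw18*/*tw18*, 35 in *tw18*/+ and 26.3 in wild type and a log2 ratio of -2.79. *Bcl11a*, a zinc finger transcription factor, had 2.69 in *tw18*/*tw18*, 13 in *tw18*/+ and 7.32 in wild type. *Rragb*, a Rag GTPase that links amino acids to mTORC1, had 4.46 in *tw18*/*tw18*, 20.8 in *tw18*/+ and 19.6 in wild type. *Pianp* had 1.98 in *tw18*/*tw18*, 11.5 in *tw18*/+ and 6.13 in wild type, and the predicted gene *Gm12669* 4.86 in *tw18*/*tw18*, 21.8 in *tw18*/+ and 22.7 in wild type. For the genes of this paragraph from *Psg29* on, the values of wild type and *tw18*/+ lay closer to each other on the log2 scale than either lay to *tw18*/*tw18*, except for *Psg29*.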

How the data were processed

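Total RNA of 3 samples, 1 library each of wild type, *tw18*/+ and *tw18*/*tw18*, was turned into libraries with random hexamers and read from both ends over 50 bp. The authors aligned these reads to mm10 and deposited FPKM values for 23421 genes, and the submitters' processing notes name TopHat2 2, Bowtie 1.0.0, Cuffdiff and Cufflinks 2.2.1. The gene annotation and library normalization are not given in the sources used here. Genotypes were taken from the labels and matched to the named columns.

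Ratios, medians and counts were computed with Python 3.11.15, numpy 2.4.6 and pandas 2.3.3, and plots drawn with matplotlib 3.10.9. FPKM is no count, and 1 library per genotype allows no test. Depth was estimated from the steps of low FPKM values of genes with 1 annotated transcript. Intervals cover counting error only and use approximate transcript lengths. Positions for 23268 genes came from GENCODE M21 and RefSeq (both GRCm38), and promoters from RefSeq. The rule for the threshold calls was tried on simulated data. How often the calls err in these libraries, above all near the filter, was not tested.

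The genes named were *Ppp2r1a*, *T*, *Nanog*, *Tdgf1* and *Eng*, the 15 genes with the greatest rise and the 15 with the greatest drop of log2(FPKM + 1) past the threshold where 1 library reached an FPKM of 10 (small RNA genes left out), genes listed at 0 in 1 of the libraries with at least 10 in the other, and members of 43 gene lists. A small number of these are not reported here. Genes of the deleted interval, near copies of named genes and the genes at the edge of the filter were named after their values were seen. All members and lists were chosen with earlier results of these data known. Alternatives were pseudocounts of 0.1 and 1, other filters, a log2 threshold of 2, other scalings and wild type as the reference.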

Additional observations from a re-analysis of the deposited data

How the results depend on the processing

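Against 1910 genes higher and 726 lower, the numbers were 1179 and 375 with a pseudocount of 1, 1099 and 396 with an FPKM of at least 1 in both libraries, 850 and 295 with at least 5 in either, 3689 and 2081 with no filter, and 610 and 195 at a log2 ratio of 2. With equal FPKM sums they were 2714 and 472, so that 85.2% of these genes were higher, and without *Lars2* in the sums 84.2% were. With no filter 63.9% were higher, and after centring within expression level, chosen after seeing the data, 64.3%. A pseudocount of 0.1, centring on the median, and leaving out zeros or small RNA genes kept both numbers within 1.5 times. With wild type as the reference, 8 of the named genes past the threshold changed direction, to log2 ratios of 13.25 (*Amd1*), -0.88 (*Amd2*), -0.52 (*Dnmt3a*), 0.59 (*Eif3j2*), 0.82 (*Gzmd*), -0.23 (*Mmp9*), -1.99 (*Prl8a2*) and -1.36 (*Timp3*), and no other setting turned a gene past it. Of 83 named genes within the threshold, 10 changed sign with equal sums, 9 without *Lars2* in the sums, 10 after centring within level and 11 of 82 against wild type. Among 42 list medians, DNA methylation turned to 0.15 with equal sums, 0.12 without *Lars2* in them and 0.048 after centring within level, the sex-linked list to 0.019 with equal sums and 0.17 after centring within level, the respiratory chain to 0.078 after centring within level, and the WNT list to -0.0032 and the unfolded protein list to -0.099 against wild type. The causes were not tested. No paired analysis was possible because each genotype has 1 library, and leaving out a library leaves no comparison. The depth limits values near an FPKM of 1, and without replicates no difference has a measured error beyond counting.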

Other observations

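The complexes and enzymes of the remaining lists differed little between *tw18*/*tw18* and *tw18*/+. Of 9 measured genes of the Arp2/3 complex, which nucleates branched actin, 1 was higher and none lower, with a median difference of 0.17. That gene was *Arpc1b*, at an FPKM of 34.2 in wild type, 40.6 in *tw18*/+ and 96.1 in *tw18*/*tw18*. *Actr3* of the same complex had 81.5 in *tw18*/+ and 76.8 in *tw18*/*tw18* and was listed at 0 in wild type. Among 37 genes of aminoacyl-tRNA synthetases, which charge tRNAs with amino acids, *Lars2* was the only member past the threshold, and the median difference was -0.30. Genes of small RNAs by symbol, whose mature products are shorter than the fragments sequenced, were split evenly, with 20 of 52 measured genes higher and 20 lower.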
